A study of Mus musculus with 6 samples.

Results

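The genes described here encode integrins and the cytoplasmic proteins of focal adhesions. They were chosen by symbol, as 35 of the 55401 genes in the count table: 18 integrin subunits, of which 11 are alpha and 7 are beta subunits, and 17 cytoplasmic proteins. No measured value entered the rule, but the genes were chosen with earlier results of these data known. RNA-seq counts per gene were compared between WT and Cdh1-/- V6.5 cells, an established mouse embryonic stem cell line, with 3 libraries of each genotype lettered A, B and C. Both genotypes share this line and differ, as far as the labels say, in the knockout of Cdh1, which encodes the epithelial cell-cell adhesion receptor E-cadherin. The labels name neither the clone, the culture conditions nor the passage, and do not say whether the libraries came from separate cultures, so the p-values measure only the spread between these samples, which may be technical. In bulk RNA, fewer cells of a type and less RNA per cell cannot be told apart.

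Integrins are receptors made of an alpha and a beta subunit that hold cells to the extracellular matrix. The pair decides the ligand: subunits alpha 3, alpha 6 and alpha 7 bind laminins, alpha 1 and alpha 2 bind collagens, and alpha 5, alpha 8 and alpha v bind proteins with an RGD motif such as fibronectin and vitronectin. Talins and kindlins bind the cytoplasmic tails of beta subunits and activate the receptor. Adaptors, kinases and actin crosslinkers then link it to the cytoskeleton. In embryonic stem cells, integrins hold the cells to laminin and fibronectin, while E-cadherin holds them to each other.

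Levels are given as CPM after TMM scaling, counts set relative to the size of the library, and as CPM per kb of exon where genes are compared with each other. Fold changes are knockout over WT on the log2 scale with their standard error (SE), and each adjusted p comes from edgeR's quasi-likelihood test with Benjamini-Hochberg adjustment over the 17325 genes tested. Genes with an adjusted p under 0.05 count as called. The libraries held 18020719 to 23381942 counts. Transcripts of the targeted gene, Cdh1, measured 559 ± 19.1 CPM in WT and 173 ± 9.05 CPM in Cdh1-/- cells (SD, n = 3 each), a log2 fold change of -1.70 (SE 0.08, adjusted p = 2.9e-08). The first principal component, 45.2% of the variance, separated the genotypes, and the second, 20.9%, set knockout library A apart from B and C, and WT library C apart from A and B on the side of knockout library C. Of the 9 embryonic stem cell markers all were tested and 2, Tdgf1 and Fgf4, were higher in the knockout. Their summed level ranged from 4292 to 4757 CPM in WT and from 4746 to 5988 CPM in Cdh1-/- cells. Of 10 primitive or parietal endoderm markers, 8 were tested and all 8 were higher, without removal of chromosome medians. Among the 10, Gata4 and Sox7 lie on chromosome 14, whose medians were raised in the knockout. Sox17 lies on chromosome 1, whose medians were lowered, and Foxa2 had at most 6 counts in any WT library. The 10 markers are summed next. They summed to 38.2 to 58.8 CPM in WT, and to 100.04, 116 and 183 CPM in knockout libraries A, B and C, while Afp lay at or under 6 counts in every library. Fibroblast markers summed to 51.8 to 75.9 CPM in WT and 45.5 to 59.1 CPM in Cdh1-/- cells, with 1 of 7 tested lower, and Lum at or under 6 counts in every library. Trophoblast markers summed to 113 to 121 CPM and 59.7 to 77.2 CPM, with 1 of 6 tested lower. Neural progenitor markers summed to 136 to 177 CPM and 97.2 to 134 CPM, with 2 of 4 tested lower. The part of these marker genes in the results on adhesion genes was not tested.

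Integrin and focal adhesion genes were higher in the knockout or were not called, and none was called lower. Of the 35 genes, 31 passed the filter on low counts and 12 of these were higher: the alpha subunits Itga5, Itga6 and Itga9, the beta subunits Itgb3, Itgb4, Itgb5 and Itgb7, the kindlin Fermt2, the PINCH and parvin genes Lims2 and Parvb, and the adaptors Pxn and Bcar1. Over all tested genes 13.3% were called, 7.6% higher and 5.71% lower, against 12 of 31 adhesion genes, or 38.7%. At an unadjusted p under 0.05, 17 adhesion genes passed, beside 26.7% of all tested genes. Of these 14 were higher and 3 lower, and the 5 that were not called were Itga1, Itga7, Itga8, Fermt1 and Src. DESeq2 and limma-voom each called 12 higher and 1 lower, the kindlin Fermt1. Called genes rose between 1.34-fold (Bcar1) and 3.43-fold (Lims2), and 3 of them, Itga9, Itgb4 and Lims2, exceeded 2-fold. The median log2 fold change was 0.26 over the 31 adhesion genes and -0.01 over all tested genes.

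The ranges of the genotypes did not overlap for 17 of the 31 genes, beside 30.7% of all tested genes. All knockout libraries lay above all WT libraries for 12 genes (15.7% of all tested genes) and below them for 5 (15% of all tested genes), which were Itga1, Itga3, Itga7, Fermt1 and Actn1. Of the 12 calls, 8 held in each of 16 alternative analyses: Itga5, Itga6, Itga9, Itgb4, Itgb5, Itgb7, Parvb and Pxn. Itgb3, Fermt2, Lims2 and Bcar1 each lost the call in at least 1 of them, as given beside each gene.

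**Figure D1:**
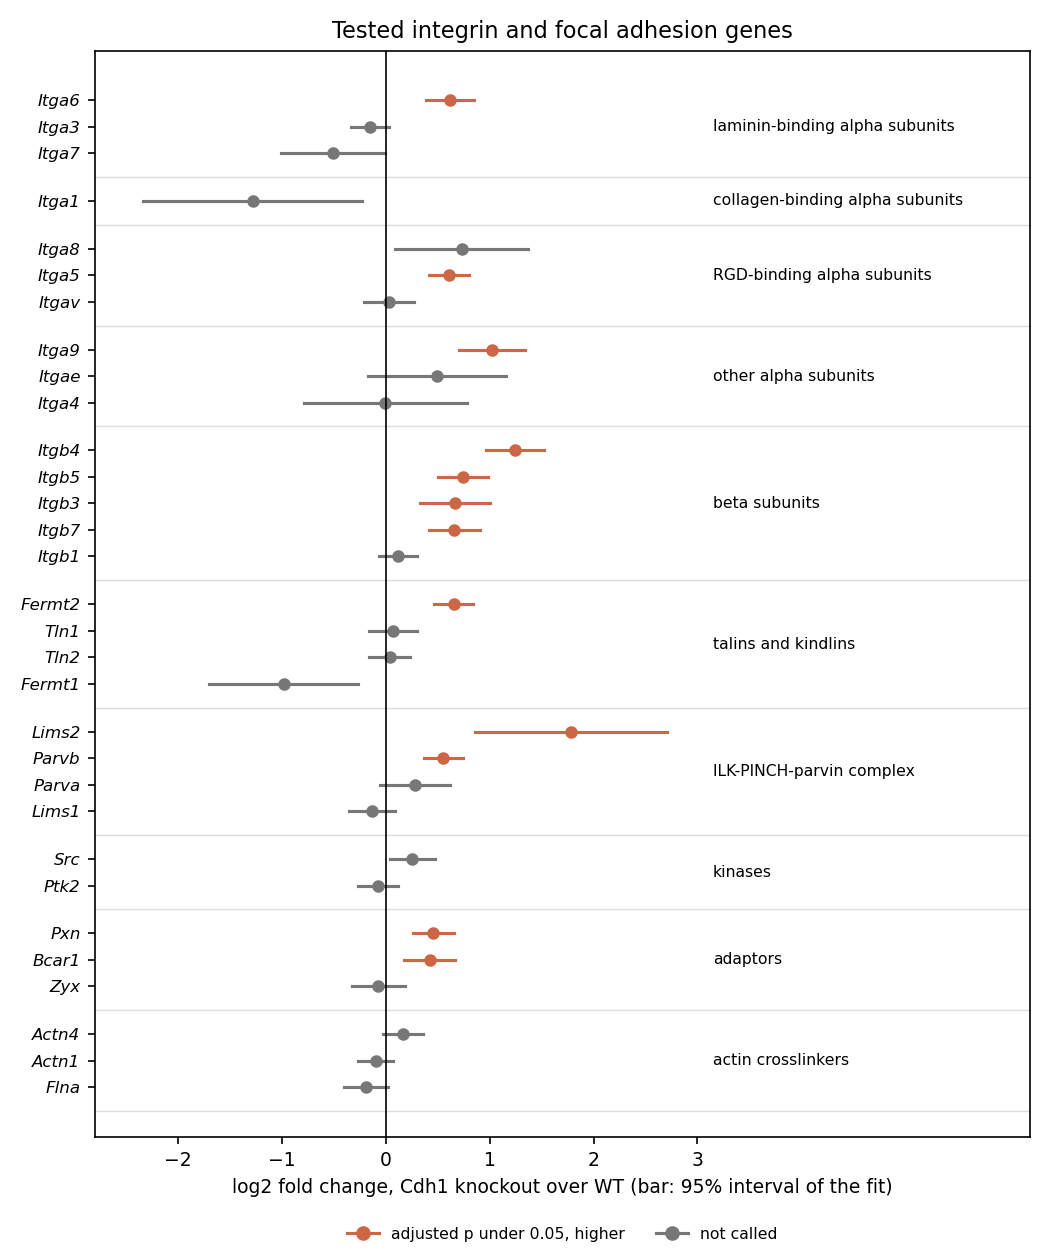
Log2 fold change of the 31 tested integrin and focal adhesion genes, Cdh1 knockout over WT, grouped by role; points are estimates of the fit, bars their 95% intervals, and orange marks genes called higher. All 12 called genes lie to the right of 0, and 4 of the 5 tested beta subunits are among them.

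The starts of 3 called genes of different roles are shown so that the sequences around their promoters can be read beside the values: Itga5, an alpha subunit, Itgb5, a beta subunit, and Fermt2, a kindlin. Each is the RefSeq window of 300 bases, 250 before and 50 after the transcript start, from build GRCm38.p6, read 5′ to 3′ on the strand of the gene. The Itga5 window lies at chr15:103366742-103367041 on the minus strand, the Itgb5 window at chr16:33829415-33829714 on the plus strand and the Fermt2 window at chr14:45530016-45530315 on the minus strand. Capitals mark matches to the motifs searched, an E-box in Itgb5 and a CArG box in Fermt2.
Itga5 promoter: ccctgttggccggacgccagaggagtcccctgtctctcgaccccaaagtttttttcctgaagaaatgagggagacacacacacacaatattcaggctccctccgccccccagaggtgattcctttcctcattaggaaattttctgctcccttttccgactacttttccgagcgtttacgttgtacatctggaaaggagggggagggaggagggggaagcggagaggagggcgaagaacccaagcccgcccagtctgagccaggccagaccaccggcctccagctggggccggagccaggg
Itgb5 promoter: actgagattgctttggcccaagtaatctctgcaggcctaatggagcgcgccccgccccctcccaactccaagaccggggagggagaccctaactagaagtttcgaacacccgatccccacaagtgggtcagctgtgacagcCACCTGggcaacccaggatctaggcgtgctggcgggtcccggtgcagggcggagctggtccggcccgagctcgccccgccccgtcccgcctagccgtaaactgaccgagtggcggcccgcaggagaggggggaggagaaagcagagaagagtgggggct
Fermt2 promoter: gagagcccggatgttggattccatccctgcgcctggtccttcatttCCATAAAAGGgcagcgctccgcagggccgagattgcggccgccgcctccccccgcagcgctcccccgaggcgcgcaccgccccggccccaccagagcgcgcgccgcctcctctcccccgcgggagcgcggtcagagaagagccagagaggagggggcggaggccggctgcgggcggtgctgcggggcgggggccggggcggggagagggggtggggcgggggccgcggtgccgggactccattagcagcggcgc

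Of the 35 genes, 25 had a window, 31 windows in all, and 7 of the 12 called genes were among them. The 5 motifs were searched on both strands and none is contained in another: the CArG box of SRF, the TCF/LEF site ATCAAAG, the TEAD site GGAATG, the AP-1 site TGANTCA and the E-box CAGGTG. A CArG box was found in the windows of Fermt2 and Itgb6, and in 1.63% of all 32851 windows. The TCF/LEF letters were in none of the 31 windows and in 3.73% of all windows. The TEAD letters were in windows of Actn4, Flna and Itgb1 (14.7% of all windows), and the AP-1 letters in those of Actn4, Itga3, Itga9 and Zyx (7.81%). The E-box was in windows of 7 of the genes, of which Itga9 and Itgb5 were called (20.2% of all windows). The matched windows of Itga9, Itgb6, Itgb8, Lims1 and Flna, and the AP-1 window of Itga3, lie wholly inside the spans of those genes. Their matches are therefore not at the outermost start of the gene. The median GC content was 64.3% over the windows of these genes, 66.2% over those of called genes and 52.7% over all windows. A match describes letters in the window and does not show that a factor binds there.

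Of the laminin-binding alpha subunits, Itga6 rose and Itga3 and Itga7 did not pass the test. Itga6 (ENSMUSG00000027111.16, chr2:71786940-71856771, plus strand) encodes the alpha 6 subunit, which pairs with beta 1 or beta 4. It measured 179, 179 and 190.3 CPM in WT libraries A, B and C, and 229.7, 295 and 315 CPM in knockout libraries A, B and C. Every knockout library lay above every WT library, and knockout A was the lowest of its genotype. The log2 fold change was 0.62 (SE 0.11, adjusted p = 0.00131). Itga3, whose subunit pairs with beta 1 at laminin contacts, measured 102, 111 and 105 CPM in WT and 92.7, 91.8 and 102 CPM in Cdh1-/- cells. Its log2 fold change was -0.15 (SE 0.09, adjusted p = 0.285). Itga7, best known from muscle, was low at 5.47 ± 0.544 and 3.85 ± 0.615 CPM (log2 fold change -0.51, adjusted p = 0.181).

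Among RGD-binding alpha subunits, Itga5 (ENSMUSG00000000555.8, chr15:103344286-103366763, minus strand), the alpha subunit of the fibronectin receptor, rose. Its levels were 155, 145 and 176 CPM in WT and 231, 244 and 250.2 CPM in Cdh1-/- cells. The genotypes were well apart, with the lowest knockout library above the highest WT library. Itga5 changed by 0.61 on the log2 scale (SE 0.09, adjusted p = 0.000398). Itgav, which encodes the alpha subunit of vitronectin receptors, measured 78.1 ± 2.86 CPM in WT and 79.8 ± 13.2 CPM in Cdh1-/- cells. Its 95% interval ran from -0.21 to 0.27 around a log2 fold change of 0.03 (adjusted p = 0.906). Itga8, which binds nephronectin, was low at 2.93 ± 0.895 and 4.89 ± 1.21 CPM, and its genotypes overlapped (log2 fold change 0.73, adjusted p = 0.131).

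Of the remaining alpha subunits, Itga9 rose, with the largest increase of the called alpha subunits. Itga9 (ENSMUSG00000039115.13, chr9:118606690-118901003, plus strand) encodes a subunit that pairs with beta 1 and binds tenascin C and osteopontin. It measured 12.6, 11.9 and 15.7 CPM in WT and 24.5, 25.5 and 31.4 CPM in Cdh1-/- cells, without overlap. The log2 fold change was 1.02 (SE 0.15, adjusted p = 0.000332), a 2.03-fold difference. Itga4 and Itgae, the alpha partners of beta 7 in lymphocytes, measured 2.07 ± 0.42 and 2.46 ± 0.513 CPM in WT, and 2.07 ± 0.803 and 3.48 ± 0.971 CPM in Cdh1-/- cells. Neither passed the test (adjusted p = 0.993 and 0.348). The collagen receptor subunit Itga1 measured 0.945, 1.21 and 1.20 CPM in WT and 0.221, 0.524 and 0.605 CPM in Cdh1-/- cells. All its knockout libraries were below the WT libraries, at levels close to the floor of detection, and it was not called (log2 fold change -1.28, SE 0.49, adjusted p = 0.108). Itga2, the other collagen receptor subunit, had at most 2 counts in any library and was not tested.

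Of the 5 beta subunits tested, 4 rose, and the exception was the most abundant. Itgb1 (ENSMUSG00000025809.15, chr8:128685654-128733200, plus strand), the common partner of most alpha subunits here, measured 457, 493 and 442 CPM in WT and 515, 459 and 530.4 CPM in Cdh1-/- cells. Its genotypes overlapped, and the log2 fold change of 0.11 (SE 0.09, adjusted p = 0.446) had a 95% interval from -0.07 to 0.30. Itgb4 (ENSMUSG00000020758.15, chr11:115974709-116008412, plus strand) encodes the beta subunit that pairs with alpha 6 in hemidesmosomes. It measured 15.6, 16.4 and 20.6 CPM in WT and 40.4, 39.0 and 44.9 CPM in Cdh1-/- cells. The knockout libraries were close to each other and far from WT. Its log2 fold change of 1.24 (SE 0.13, adjusted p = 2.37e-05) was the largest of any called integrin subunit and had the lowest adjusted p of the 31 genes.

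Itgb5 and Itgb3, which can pair with alpha v, also rose. Itgb5 (ENSMUSG00000022817.15, chr16:33829665-33949338, plus strand), a vitronectin receptor subunit, measured 34.8, 36.4 and 37.8 CPM in WT and 54.4, 57.5 and 70.5 CPM in Cdh1-/- cells. Its log2 fold change was 0.74 (SE 0.11, adjusted p = 0.000459). Itgb3 (ENSMUSG00000020689.4, chr11:104608000-104670476, plus strand), known from platelets and osteoclasts, measured 7.65, 8.64 and 7.70 CPM in WT and 12.8, 12.8 and 12.3 CPM in Cdh1-/- cells. The genotypes of both genes did not overlap. Itgb3 changed by 0.66 (SE 0.16, adjusted p = 0.0114), but without WT library A its adjusted p was 0.0561. Itgb7 (ENSMUSG00000001281.10, chr15:102215995-102231944, minus strand), a beta subunit of lymphocyte homing receptors, measured 20.9, 21.6 and 18.9 CPM in WT and 30.8, 33.6 and 32.3 CPM in Cdh1-/- cells. All knockout libraries were again above WT, by 0.66 on the log2 scale (SE 0.12, adjusted p = 0.00142). Itgb6 and Itgb8, which also pair with alpha v, as Itgb1 can, were not tested. Itgb8 had 6, 6 and 4 counts in WT and 0, 0 and 2 in the knockout, at or under the floor of 6 counts in both genotypes, and Itgb6 had 2 counts in 1 knockout library and 0 elsewhere.

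Per length, transcripts of few subunits dominated. In WT, Itga6 stood at 40.8 ± 1.49 CPM per kb, Itga5 at 36.2 ± 3.63, Itga3 at 20.2 ± 0.806, Itgav at 11.1 ± 0.406 and Itga9 at 1.87 ± 0.282 (SD, n = 3 each). Itga6 and Itga5, neighbours in that order, differed by less than 2 SD of Itga5. Among beta subunits Itgb1 led at 122 ± 6.87 CPM per kb, followed by Itgb5 at 10.7 ± 0.432, Itgb7 at 7.62 ± 0.516, Itgb4 at 2.74 ± 0.417 and Itgb3 at 1.38 ± 0.0961. In the knockout the means of these genes had the same order within both families, but in knockout library A Itga5 (52.8 CPM per kb) lay above Itga6 (51.3). On average Itga6 then stood at 62.5 ± 9.92 CPM per kb, Itga5 at 55.2 ± 2.20, Itgb5 at 17.9 ± 2.53 and Itgb4 at 6.49 ± 0.478. Itga6 and Itga5 differed there by less than 1 SD of Itga6. The raised beta subunits stayed below Itgb1, which was at 131 ± 9.84 CPM per kb. Partners of 1 receptor were also unequal in transcript level: Itgb4 was at 2.74 CPM per kb in WT against 40.8 for Itga6, and Itgb7 at 7.62 against 0.212 for Itga4 and 0.641 for Itgae.

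**Figure D2:**
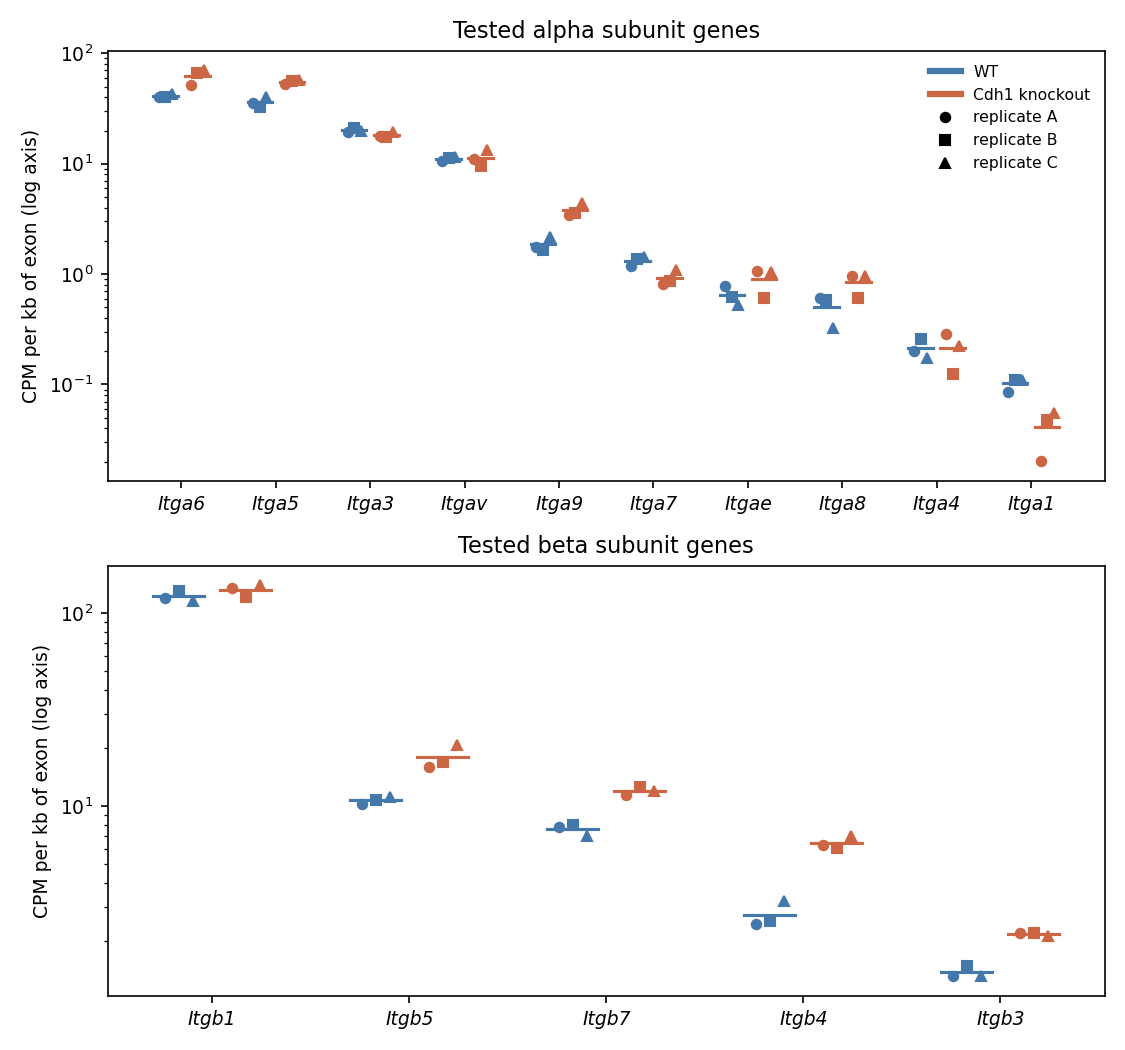
CPM per kb of exon (log axis) of the tested alpha subunit genes (upper panel) and beta subunit genes (lower panel), ordered by WT mean; each symbol is 1 library, blue WT and orange knockout, and lines are means. Itgb1 stands above the other beta subunits in all 6 libraries, at 122 CPM per kb in WT and 131 in the knockout against 10.7 and 17.9 for Itgb5, the next.

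Summed over the 11 alpha subunits, the level was 113 ± 5.11 CPM per kb in WT and 154 ± 14.2 in the knockout, and over the 7 beta subunits 144 ± 7.07 and 170 ± 11.5. Neither sum overlapped between the genotypes. The ratio of the alpha sum to the beta sum was 0.777, 0.722 and 0.857 in WT and 0.815, 0.976 and 0.926 in the knockout, and this ratio did overlap. Itgb1 made up 84.4% ± 0.715 of the beta sum in WT and 77.3% ± 1.48 in the knockout. The share of Itgb5 went from 7.45% ± 0.519 to 10.5% ± 1.07, and that of Itgb4 from 1.91% ± 0.357 to 3.81% ± 0.100. Among alpha subunits, the share of Itga3 was 17.9% ± 1.20 in WT and 11.8% ± 0.728 in the knockout, while that of Itga6 was 36.1% ± 0.313 and 40.4% ± 3.18. These shares describe transcripts and were given no test.

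**Figure D3:**
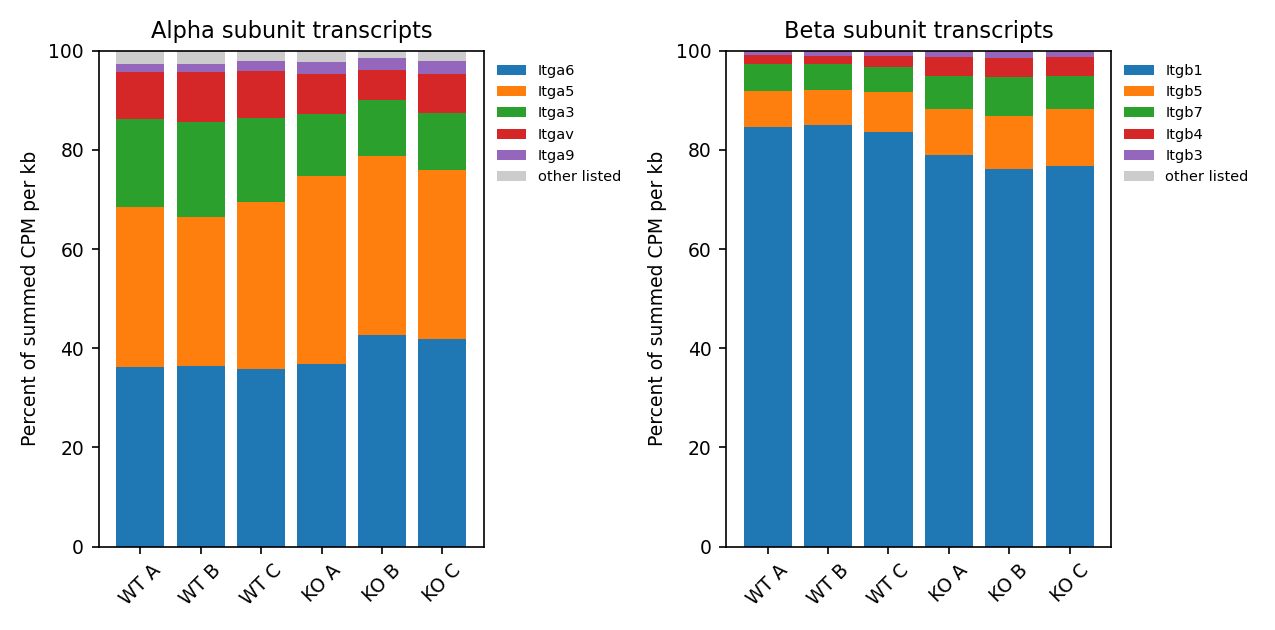
Percent of the summed CPM per kb of alpha subunit transcripts (left) and beta subunit transcripts (right) in each of the 6 libraries; colours are genes and grey the other listed subunits. The Itgb1 share averages 84.4% in WT and 77.3% in the knockout.

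Among the activators at the beta tail, the kindlin Fermt2 rose and neither talin was called. Fermt2 (ENSMUSG00000037712.16, chr14:45458795-45530118, minus strand) encodes kindlin-2, the kindlin of most tissues. It measured 165, 177 and 188 CPM in WT and 257, 291 and 286 CPM in Cdh1-/- cells, with no overlap. The log2 fold change was 0.65 (SE 0.09, adjusted p = 0.000167). Fermt2 lies on chromosome 14. For each knockout library, the median log2 deviation from the WT mean was 0.54 to 0.55 higher there than on the autosomes other than 1 and 14. With the medians of chromosomes 1 and 14 removed, Fermt2 stood at 0.11 (adjusted p = 0.495) and was not called. None of the other 34 genes lies on either chromosome. Fermt1, the epithelial kindlin-1, measured 6.44, 3.84 and 5.45 CPM in WT and 2.87, 1.40 and 3.73 CPM in Cdh1-/- cells. Its knockout libraries all lay below WT, and the log2 fold change of -0.98 (SE 0.34) missed the threshold at an adjusted p of 0.0688. It was called lower with DESeq2 (adjusted p = 0.0345), limma-voom (0.0492), no filter on low counts (0.0137), the replicate block (0.0146) or without knockout library C (0.0420), which is 5 of 16 alternatives. Over all of them its adjusted p ranged from 0.0137 to 0.26. Tln1 and Tln2, the talins that open the receptor, had 95% intervals of -0.17 to 0.29 and -0.16 to 0.23 around log2 fold changes of 0.06 and 0.03 (adjusted p = 0.764 and 0.859). Per length Tln1 was the more abundant talin, at 23.4 ± 2.43 CPM per kb in WT against 8.14 ± 0.44 for Tln2.

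The complex of ILK, PINCH and parvin proteins links beta tails to actin. Parvb (ENSMUSG00000022438.6, chr15:84232043-84315688, plus strand), which encodes beta-parvin, measured 109.8, 111 and 99.4 CPM in WT and 155, 167 and 147 CPM in Cdh1-/- cells. All knockout libraries were above WT, by 0.55 on the log2 scale (SE 0.09, adjusted p = 0.000697). Parva, its paralog, measured 17.5 ± 3.09 and 21.2 ± 3.20 CPM and overlapped (log2 fold change 0.28, adjusted p = 0.288). Per length, Parvb stood at 28.2 ± 1.69 CPM per kb in WT and Parva at 3.80 ± 0.67. The PINCH gene Lims2, on chromosome 18, was low at 1.89, 0.758 and 0.700 CPM in WT and 2.16, 5.11 and 4.34 CPM in Cdh1-/- cells. WT library A and knockout library A lay close together. Its log2 fold change was 1.78 (SE 0.43, adjusted p = 0.0125), and the call was lost without WT library B (0.0792), WT library C (0.0601), knockout library B (0.0802) or knockout library C (0.0511). Of its exon bases 10.1% lie under exons of a gene on the opposite strand. The other PINCH gene, Lims1, stood at 18.4 ± 1.53 CPM per kb in WT against 0.597 ± 0.359 for Lims2. Lims1 measured 90.7 ± 7.55 and 82.6 ± 9.82 CPM (log2 fold change -0.14, adjusted p = 0.448).

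Ilk, which encodes the central kinase-like scaffold of that complex, had 2, 0 and 0 counts in WT and 0, 1 and 0 in the knockout and was not tested. Of its exon bases, 98.7% lie under exons of genes on the opposite strand. Of 51 protein-coding genes with over 90% of exon bases under such exons, 48 (94.1%) had at most 6 counts in every library, against 31.9% of 17844 genes with under 1%. The level of Ilk was therefore not read from these counts.

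Neither kinase passed the test. Ptk2, focal adhesion kinase, measured 101 ± 5.40 CPM in WT and 96.0 ± 7.83 CPM in Cdh1-/- cells (log2 fold change -0.08, 95% interval -0.27 to 0.12, adjusted p = 0.662). Src measured 84.2, 73.1 and 72.6 CPM in WT and 82.9, 99.6 and 91.9 CPM in Cdh1-/- cells. WT library A and knockout library A overlapped, and Src was not called (log2 fold change 0.26, SE 0.10, adjusted p = 0.113), although without knockout library A its adjusted p was 0.0330.

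Of the adaptors, Pxn and Bcar1 rose. Pxn (ENSMUSG00000029528.19, chr5:115506676-115555987, plus strand) encodes paxillin, a scaffold phosphorylated by focal adhesion kinase and Src. It measured 62.8, 65.7 and 72.0 CPM in WT and 89.3, 88.6 and 97.4 CPM in Cdh1-/- cells, without overlap. Its log2 fold change was 0.46 (SE 0.09, adjusted p = 0.00382). Bcar1 (ENSMUSG00000031955.10, chr8:111710474-111743809, minus strand), which encodes the Src substrate p130Cas, measured 104, 97.0 and 126 CPM in WT and 127, 145 and 165 CPM in Cdh1-/- cells. Knockout library A was barely above WT library C, the log2 fold change was 0.42 (SE 0.11, adjusted p = 0.0237), and the call was lost without WT library A (0.116), WT library B (0.135), knockout library B (0.0705) or knockout library C (0.124). Zyx, the LIM protein zyxin of mature, tension-bearing adhesions, measured 27.7 ± 2.74 and 26.4 ± 1.90 CPM (log2 fold change -0.07, adjusted p = 0.765).

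No actin crosslinker was called by edgeR, and none had an unadjusted p under 0.05. Flna, filamin A, which competes with talin for beta tails, measured 597 ± 57.9 CPM in WT and 523 ± 57.0 CPM in Cdh1-/- cells, with overlap (log2 fold change -0.19, adjusted p = 0.234). Actn1, alpha-actinin-1, measured 233, 236 and 236 CPM in WT and 228, 215 and 216 CPM in Cdh1-/- cells. Its ranges did not overlap, yet the log2 fold change was only -0.10 (adjusted p = 0.466). Of the exon bases of Actn1, 11.9% lie under exons on the opposite strand. Actn4, alpha-actinin-4, had the highest WT mean of the 35 genes per length at 132 ± 7.01 CPM per kb, and measured 519 ± 27.6 and 583 ± 60.3 CPM (log2 fold change 0.17, adjusted p = 0.263).

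**Figure D4:**
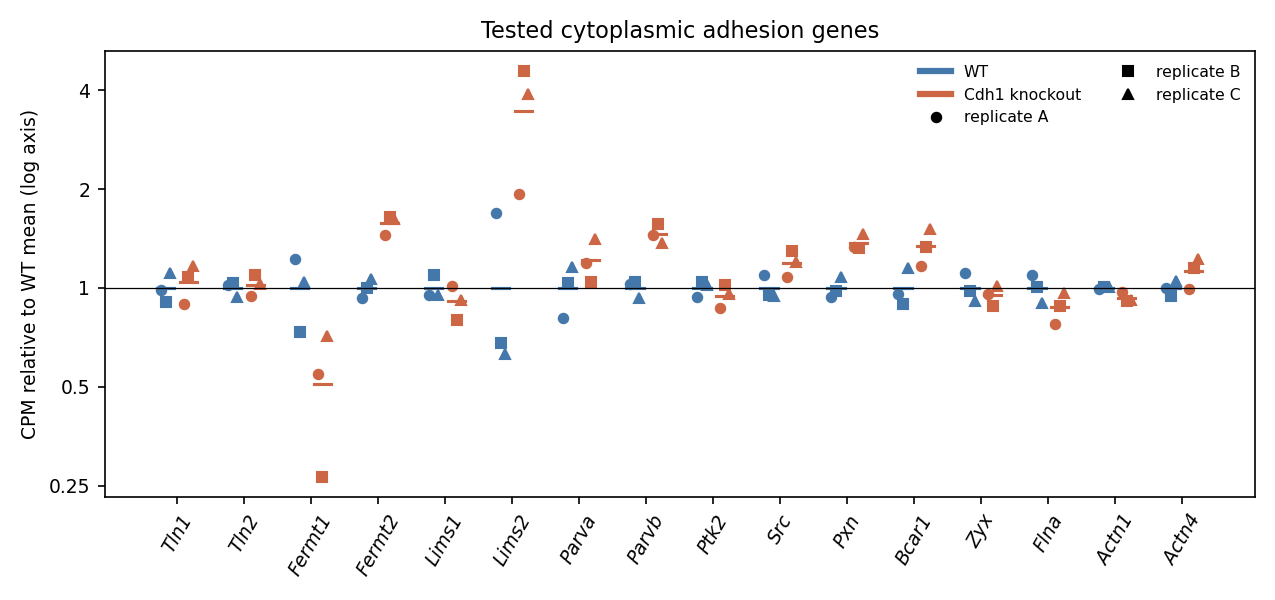
CPM of the 16 tested cytoplasmic adhesion genes relative to the WT mean of each gene (log axis); each symbol is 1 library, blue WT and orange knockout, and lines are means. Fermt2, Parvb, Pxn, Bcar1 and Lims2 lie above 1 in all knockout libraries, and the libraries of Tln1, Tln2, Ptk2 and Zyx fall on both sides of 1 or close to it.

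Other genes of integrin adhesions moved in both directions. Of 88 listed, 81 were tested, 13 were higher and 10 lower, or 28.4% called against 13.3% of all genes, with a median log2 fold change of -0.01. By family, none of the 5 further integrin subunits tested was called by edgeR, and 2 of them had an unadjusted p under 0.05. Of 12 activators and inhibitors tested, 3 were higher, the talin-binding KANK genes Kank2, Kank3 and Kank4. Kank1 was not called (-0.10, adjusted p = 0.613). Kank2 lost the call without any 1 of 5 libraries (adjusted p 0.0645 to 0.0983) and with upper quartile scaling (0.0559) or library totals (0.0578), and Kank4 without WT library A (0.163) or B (0.119) or knockout library B (0.104) or C (0.145). Adhesion adaptors gave 3 higher and 3 lower of 23, zyxin-related LIM proteins 1 and 2 of 10, kinases and phosphatases 2 and 2 of 11, actin regulators 2 and 3 of 13, and membrane partners 2 and 0 of 7. Cd9, a tetraspanin found beside integrins, went from 118 ± 23.3 to 228 ± 26.7 CPM (log2 fold change 0.95, adjusted p = 0.000155). Sorbs3, the vinculin-binding vinexin, on chromosome 14, changed by 0.93 (adjusted p = 0.000544) and by 0.39 without the chromosome medians (adjusted p = 0.110). Lyn, a Src-family kinase, was higher by 1.02 (adjusted p = 0.00752), and lost the call without WT library B (0.0545) or knockout library C (0.0515).

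Among the called genes of this list, the largest decreases were those of Cav1, Fhl2, Actn2 and Elmo1. Cav1, which encodes caveolin-1, measured 1.15 ± 0.251 CPM in WT and at most 2 counts in any knockout library, at least 3.85-fold lower against the floor of 6 counts per library. Actn2, the muscle alpha-actinin, fell by 1.60 on the log2 scale (adjusted p = 0.00244), Elmo1, an engulfment and Rac activation factor, by 1.04 (adjusted p = 0.000408) and the LIM gene Fhl2 by 1.92 (adjusted p = 0.0171). Fhl2 lost the call with chromosome medians removed (adjusted p = 0.0530), without any single WT library (0.0536 to 0.0828) and without knockout library B (0.0907) or C (0.0854). Vcl, vinculin, with 39.7% of its exon bases under exons on the opposite strand, measured 85.3 ± 3.08 and 102 ± 7.48 CPM. Its log2 fold change was 0.26 (adjusted p = 0.0742), and with chromosome medians removed -0.28 (adjusted p = 0.0584), so its direction turned with the treatment of chromosome 14. Of 12 tested genes of the list on chromosomes 1 and 14, 8 were called, and 1 of these stayed called with chromosome medians removed. All 3 calls among the zyxin-related LIM proteins were lost in that fit. Plec, chosen after its values were seen because plectin links beta 4 to keratin filaments, measured 172 ± 8.63 and 248 ± 29.1 CPM (0.53, adjusted p = 0.00194). Dst, a related plakin chosen in the same way, was lower at 666 ± 57.9 and 492 ± 65.6 CPM (-0.44, adjusted p = 0.0107), but was not called with chromosome medians removed (-0.13, adjusted p = 0.4996) or without WT library B (0.0781). Cd151, a tetraspanin partner of laminin-binding integrins chosen likewise, did not pass the test (0.19, adjusted p = 0.215).

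Genes listed as integrin ligands, mostly matrix genes but also Vcam1 and the growth factor genes Tgfb1 and Tgfb2, changed in both directions. Of 33 listed, 31 were tested, 10 were higher and 7 lower, or 54.8% called, with a median log2 fold change of 0.24. The shares over all tested genes were 13.3% called, 7.6% higher and 5.71% lower. Of 11 laminin chains 4 were higher and 2 lower, and of 7 collagen genes 2 were higher and 1 lower. The lower laminin chains were Lama3 (log2 fold change -0.57, adjusted p = 0.0368) and Lamb3 (-1.07, adjusted p = 0.0274). Lama3 lost the call in 5 of the 16 alternatives and Lamb3 in 4. Lamb3 lies on chromosome 1 and was not called with chromosome medians removed (-0.76, adjusted p = 0.126). Lama1, the laminin alpha 1 chain, measured 125, 159.8 and 174 CPM in WT and 339, 429.5 and 622 CPM in Cdh1-/- cells, a log2 fold change of 1.60 (SE 0.18, adjusted p = 3.69e-05). Lama5 and Lamb1, the alpha 5 and beta 1 chains, were higher by 0.87 (adjusted p = 1.44e-05) and 0.89 (adjusted p = 0.000161). Lamc1, the gamma 1 chain, missed the threshold of edgeR's test at 0.40 (adjusted p = 0.0534). It was called higher in 5 of the 16 alternatives: DESeq2 (adjusted p = 0.0236), no filter on low counts (2.85e-05), the replicate block (0.00446), without knockout library A (0.000639) and with chromosome medians removed (0.00186). Lamc1 lies on chromosome 1, where the knockout medians were -0.33, -0.33 and -0.29, and stood at 0.72 with chromosome medians removed. The collagen IV genes Col4a1 and Col4a2 were higher by 1.82 and 1.85 (adjusted p = 1.44e-05 and 8.18e-06). Lama1, Col4a1, Col4a2 and the endoderm marker sum were all highest in knockout library C. Among the called adhesion genes, Itga5, Itga6, Itga9, Itgb4, Itgb5, Pxn and Bcar1 were also highest in that library. Itgb3, Itgb7, Fermt2, Lims2 and Parvb were highest in knockout library B. The part of endoderm-like cells in these ligand and adhesion gene values was not tested.

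Of 13 tested genes listed as ligands of RGD-binding and other integrins, 4 were higher and 4 lower. Fn1, fibronectin, measured 1847, 1818 and 1713 CPM in WT and 1125, 990.1 and 1123 CPM in Cdh1-/- cells, so the ligand gene fell while that of its receptor subunit, Itga5, rose. The log2 fold change was -0.73 (SE 0.08, adjusted p = 3.92e-05), and -0.42 with the medians of chromosome 1, its own, removed (adjusted p = 0.00366). Tnc, tenascin C, an alpha 9 ligand, measured 3.50 ± 0.526 CPM in WT and 2 counts in each knockout library, at least 11.7-fold lower. Thbs1, thrombospondin-1, fell by 1.70 (adjusted p = 0.000641) and the interstitial collagen gene Col1a1 by 1.48 (adjusted p = 0.000912). Tgfb2, a growth factor gene on this list, fell by 2.60 (adjusted p = 0.00697, and 0.0664 without WT library A). Fbn1, fibrillin-1, which carries an RGD motif, was higher by 1.25 (adjusted p = 8.05e-05). Of the exon bases of Fbn1, 20.3% lie under exons on the opposite strand. Spp1, osteopontin, which binds alpha 9 and alpha v receptors and was chosen after its values were seen, was higher by 1.03 (adjusted p = 0.000837).

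**Figure D5:**
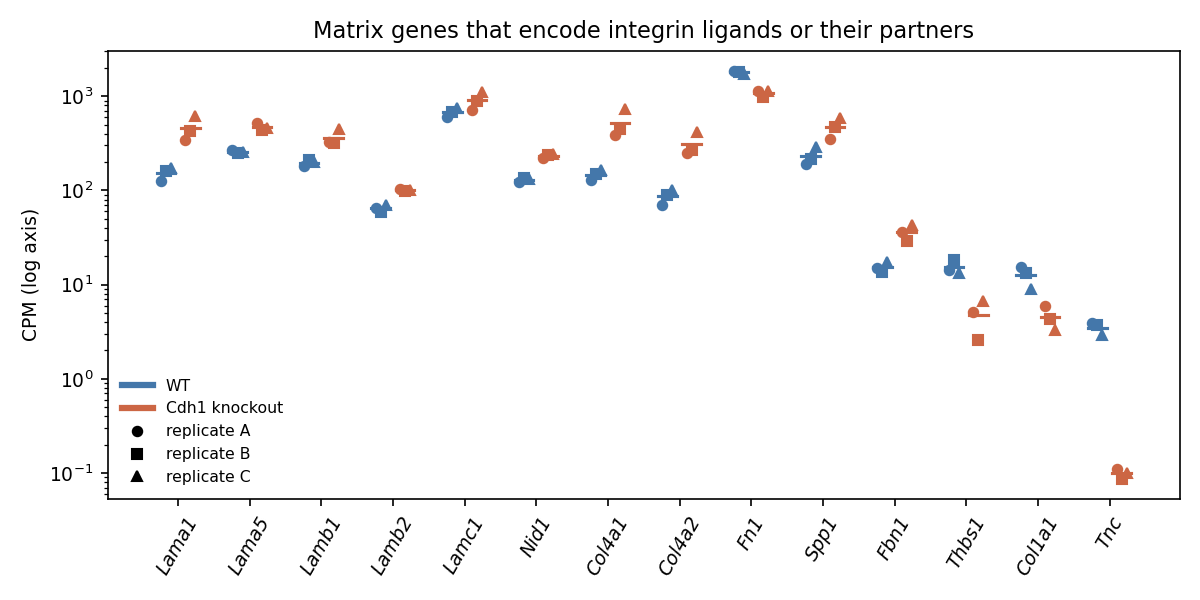
CPM (log axis) of 14 matrix genes that encode integrin ligands or their partners; each symbol is 1 library, blue WT and orange knockout, and lines are means. The laminin chains Lama1, Lama5 and Lamb1 and collagen IV are higher in the knockout, and Fn1, Thbs1, Col1a1 and Tnc lower. The laminin chains called lower, Lama3 and Lamb3, are not shown.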

How the data were processed

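Total RNA of 6 samples of V6.5 cells was made into directional libraries, per the labels' protocols. The authors deposited raw counts per gene with the exon length of each gene, per the file headers. The submitters' processing notes name STAR 2.7.5b, cutadapt 2.10, featureCounts 2.0.1 and GRCm38, while how the counting used strand is not given in the sources used here. Genes were matched to GENCODE M21 by versioned identifier (98.1%). Genotypes and letters came from the titles.

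The counts went into edgeR 4.0.16 under R 4.3.3 (filterByExpr by group with a smallest count of 10 and total of 15, TMM, glmQLFit and glmQLFTest, genotype as the only term, two-sided), which tested 17325 of 32417 genes with at least 1 count. The common biological coefficient of variation was 0.137. Low counts were mostly even (78.1% to 83.1% of values from 1 to 10, against 50.2% to 52.1% over 1000), so the floor was set to 6 counts, or 3 read pairs; it covers counting error only. All pairs of libraries differed by more than sampling noise (chi-square per degree of freedom 8.14 to 11.7 between WT libraries and 8.89 to 18.4 between knockout libraries). On simulated data of 17325 genes with 200 changed, 68% of 2-fold and 94% of 4-fold changes were recovered and 8.48% of calls were false. Alternatives used other scalings, filters, DESeq2 1.42.0, limma-voom (limma 3.58.1), a replicate block, removal of chromosome 1 and 14 medians, halved counts and each library left out.

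The adhesion genes and all gene lists were chosen with earlier results of these data known. Every adhesion gene is accounted for, and called ones are given in full. From the list of other adhesion genes and the list of ligands, up to 8 called genes by size of change are named, plus Vcl, Fn1, Lama1, Lama5, Lamb1 and Lamc1; 1 gene that this rule selects is not reported here. Kank1 to Kank4, Plec, Dst, Cd151, Spp1, Lama3 and Lamb3 were named after their values were seen. Promoter sequences are those of RefSeq.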

Additional observations from a re-analysis of the deposited data

How the results depend on the processing

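The adhesion genes called numbered 10 to 13 over the 16 alternatives against 12, and those called higher 10 to 13. The median log2 fold change of tested adhesion genes, 0.26, was 0.19 with no filter on low counts, 0.17 after removal of chromosome 1 and 14 medians, and 0.17 to 0.29 with each library left out in turn. Other adhesion genes called numbered 15 with chromosome medians removed against 23, and 15 to 23 with each library left out, lowest without WT replicate B. Over all genes, 2307 were called, and 1374 to 2784 with each library left out, lowest without WT replicates A (1374) and B (1470). Ligand genes called ranged from 13 to 21 against 17. Of 985 alternative values for 62 named genes, 941 kept their side of the threshold, 33 lost the call, 11 gained it and 0 turned a called direction. Lama3 and Lamb3 are not among these 62. Across the scalings the median of all genes moved from -0.01 to -0.04.

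The letters A, B and C are shared between genotypes, and the main fit did not treat them as pairs. The deviations of same-lettered libraries from their genotype mean correlated at 0.14, -0.03 and 0.23. Of the 6 libraries, 4 correlated best with the library of their own letter. With 3 letters these values do not decide whether the letters mark pairs. With a replicate block 2686 of all genes were called, and 13 adhesion genes were called, 12 higher and 1 lower, Fermt1 (adjusted p = 0.0146). Depth limits the genes near 1 CPM, such as Itga1 and Lims2, and leaves Itga2, Itgb6 and Itgb8 not detectable above the floor.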
